A study of Mus musculus with 12 samples.

Results

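The interleukin 1 family transcripts Il1a, Il1b, Il1rn, Il18, Il1f6 (Il36a) and Il1f9 (Il36g) were followed across 12 RNA-seq libraries of bone-marrow-derived macrophages. They were found by gene symbol and are 6 of the 55401 genes in the deposited table. The donor mice were Irx3-/- on a C57BL/6J background, so every group lacks the endogenous gene for the Iroquois homeobox transcription factor IRX3. Cells were differentiated for 7 days in M-CSF (20 nM), the growth factor of macrophages, and infected with adeno-associated virus (AAV). The virus carried IRX3_S389A or IRX3_S361A, which are IRX3 with alanine in place of a serine, or IRX3_WT, or GFP as the control. All 4 groups then received 100 ng/ml of lipopolysaccharide (LPS), the Toll-like receptor 4 ligand, for 4 h. Each group had 3 libraries, and no unstimulated cells are among them. The labels give no promoter for the constructs and no age of the mice. They also do not say whether the libraries of a group came from separate animals or cultures, so p-values measure only the spread between these libraries, which may be technical.

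The interleukin 1 family joins agonists, an antagonist and their receptors in one inflammatory system. IL-1α and IL-1β bind the receptor IL1R1, which recruits the shared chain IL1RAP and signals through MYD88 to NF-kappaB. The antagonist encoded by Il1rn occupies the same receptor without signalling. IL-18 uses a receptor pair of its own, and the IL-36 cytokines encoded by Il1f6 and Il1f9 bind IL1RL2 together with IL1RAP. IL-1β and IL-18 are made as precursors that caspase-1 cleaves after an inflammasome assembles, whereas the IL-1α precursor is itself active. In macrophages LPS induces Il1a, Il1b and Il1rn, and transcript levels say nothing of cleavage or release.

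Recovered reads per library ran from 17149058 to 20108002. Values are normalized counts, which are gene counts divided by 1 size factor per library. Irx3 had no read in any GFP library, and its normalized counts averaged 187 ± 20.2 with IRX3_S389A, 349 ± 21.5 with IRX3_S361A and 177 ± 16.3 with IRX3_WT (SD, n = 3 each). All 10 macrophage markers were detected, and their summed level was 398363 to 411920 with IRX3_S389A, 421627 to 435339 with IRX3_S361A, 396315 to 400480 with IRX3_WT and 363607 to 374326 with GFP. The sums hide shifts in both directions. With IRX3_WT against GFP, limma called 4 of the 10 higher and 2 lower (21% and 18.6% of all genes). Against IRX3_WT, 4 were called higher and 4 lower with IRX3_S389A (8.21% and 7.08% of all genes). With IRX3_S361A 3 were higher and 3 lower (6.43% and 9.07% of all genes). Scaled to the same library sum, these became 4 and 5, 4 and 4, and 5 and 2. The fit under that scaling tested 13319 genes. It called 1396 higher and 5523 lower with IRX3_WT against GFP. Against IRX3_WT it called 1171 higher and 873 lower with IRX3_S389A, and 1806 and 752 with IRX3_S361A. Markers of neutrophils, which also make IL-1β, summed over 10 genes to 240 to 277 with IRX3_S389A, 199 to 235 with IRX3_S361A, 245 to 281 with IRX3_WT and 185 to 248.7 with GFP. Ly6g, Mpo and Elane were at 0 in all 12 libraries, and 3 of the 10 genes passed the filter described with the tests. Of these, S100a8 was higher with IRX3_WT than with GFP (29.2 ± 4.81 and 12.8 ± 1.18 normalized counts, SD, n = 3, limma adjusted p = 0.00356) and, with Mmp8, higher with IRX3_S389A than with GFP (limma adjusted p = 0.0474 and 0.0404). Under equal library totals, where each library is scaled to the same sum, the call with IRX3_WT was kept (limma adjusted p = 0.00971) and both calls with IRX3_S389A were lost (limma adjusted p = 0.0925 and 0.356). Markers of epithelial cells and keratinocytes, a main source of IL-36, summed to 13.1 to 43.6 over 6 genes, with Krt5, Krt14 and Krt1 at 0 in all 12 libraries. Dendritic cell markers summed over 8 genes to 148 to 187 with IRX3_S389A, 140 to 161 with IRX3_S361A, 161 to 172 with IRX3_WT and 119 to 152 with GFP, and none was at 0 in all libraries. Of the 3 that passed the filter, Ccr7 was higher with IRX3_WT than with GFP (17.2 ± 7.70 and 6.65 ± 4.22 normalized counts, limma adjusted p = 0.0288, or 0.0431 under equal totals). Lymphocyte markers summed to 1.01 to 10.2 over 8 genes. Mast cell and basophil markers (6 genes, Mcpt4 and Fcer1a at 0 throughout) summed to 2.28 to 17.2. Stromal markers summed to 36.6 to 51.7 with IRX3_S389A, 24.1 to 70.6 with IRX3_S361A, 22.8 to 26.2 with IRX3_WT and 17.5 to 25.1 with GFP over 6 genes, of which Dcn was higher with IRX3_S389A than with GFP (8.17 ± 3.59 and 1.22 ± 1.42 normalized counts, limma adjusted p = 0.0257). Under equal library totals Dcn no longer passed the filter and was not tested. S100a8 and Ccr7 were higher with IRX3_WT than with GFP, as were Il1a, Il1b, Il1rn, Il18 and Il1f9. They were 1 of 3 neutrophil and 1 of 3 dendritic cell markers tested, against 21% of all genes called higher. Camp, Mmp8, Zbtb46 and Xcr1 were not called in this comparison. The part of these levels in the results was not tested. In bulk RNA, more cells that express a gene and more RNA per cell cannot be told apart.

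Il1a, Il1b, Il1rn, Il1f6 and Il1f9 all lie on mouse chromosome 2, and Il18 lies on chromosome 9 (GENCODE M21, GRCm38). The agonist genes Il1a (ENSMUSG00000027399.1, chr2:129299610-129309972) and Il1b (ENSMUSG00000027398.13, chr2:129364570-129371139) are neighbours on the minus strand. The antagonist gene Il1rn (ENSMUSG00000026981.15, chr2:24336853-24351494) lies on the plus strand, as do Il1f6 (ENSMUSG00000026984.4, chr2:24215418-24225702) and Il1f9 (ENSMUSG00000044103.4, chr2:24186476-24193568). The family genes Il1f5 and Il1f10 lie between Il1f6 and Il1rn. Il18 (ENSMUSG00000039217.13, chr9:50554827-50581840) is also on the plus strand. RefSeq (GRCm38.p6) gave promoter windows of 250 bases before the start for 5 of the 6 genes, 7 windows in all. Those of Il1a, Il1b, Il1rn and Il1f9 are printed because the first pair was lower and the second pair higher with IRX3_S389A than with IRX3_WT. They run 5′ to 3′ on the gene's strand, and capitals mark matches to the motifs named in the next paragraph. They cover chr2:129309973-129310222 (minus strand, Il1a), chr2:129371140-129371389 (minus strand, Il1b), chr2:24345041-24345290 (plus strand, Il1rn) and chr2:24186226-24186475 (plus strand, Il1f9).
Il1a: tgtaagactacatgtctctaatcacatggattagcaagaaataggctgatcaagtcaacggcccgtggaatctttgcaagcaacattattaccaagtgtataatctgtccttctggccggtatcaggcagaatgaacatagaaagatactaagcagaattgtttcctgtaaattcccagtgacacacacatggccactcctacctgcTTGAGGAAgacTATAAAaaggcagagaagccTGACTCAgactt
Il1b: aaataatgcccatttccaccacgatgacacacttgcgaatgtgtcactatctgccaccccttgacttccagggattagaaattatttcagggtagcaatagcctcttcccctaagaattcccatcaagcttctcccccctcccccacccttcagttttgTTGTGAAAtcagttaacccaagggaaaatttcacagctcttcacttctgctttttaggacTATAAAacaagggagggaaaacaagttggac
Il1rn: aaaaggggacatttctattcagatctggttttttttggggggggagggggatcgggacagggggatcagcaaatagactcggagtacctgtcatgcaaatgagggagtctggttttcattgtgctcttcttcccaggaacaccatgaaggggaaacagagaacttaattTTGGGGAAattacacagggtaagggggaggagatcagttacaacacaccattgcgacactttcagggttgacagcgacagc
Il1f9: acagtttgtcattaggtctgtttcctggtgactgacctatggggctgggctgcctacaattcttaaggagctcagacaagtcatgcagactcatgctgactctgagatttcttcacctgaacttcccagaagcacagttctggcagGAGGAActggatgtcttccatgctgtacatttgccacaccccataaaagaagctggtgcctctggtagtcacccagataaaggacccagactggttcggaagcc

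The Il1a and Il1b windows each held a TATA box (TATAAA on the gene strand), 32 to 27 bases before the Il1a start and 31 to 26 bases before the Il1b start. The Il1rn and Il1f9 windows had none, and 7.59% of all 32851 promoter windows of this length hold one. An AP-1 motif (TGANTCA, both strands) lay 12 to 6 bases before the Il1a start and 141 to 135 bases before the Il1rn start at 24336860, whose window is not printed, against 6.75% of all windows. The C/EBP motif (TTNNGNAA, both strands) matched 4 of the 7 windows, against 36.8% of all windows. Its matches ran from 43 to 36 bases before the Il1a start, from 91 to 84 before the Il1b start and from 81 to 74 before the printed Il1rn start. The fourth window, before the Il1rn start at 24345371, overlaps the printed Il1rn window and shares that match (161 to 154 bases before its own start), and also holds overlapping matches at 65 to 58 and 64 to 57. The ETS family motif (GAGGAA, both strands) matched in Il1a, where it lies inside the C/EBP match, and in Il1f9, against 23.3% of all windows. The NF-kappaB consensus (7.25% of all windows) and the Iroquois motif ACANNTGT (6.31% of all windows, both strands searched for each) matched 0 of the 7 windows. A match describes letters and not a site that is bound, and the absence of a match covers only these windows.

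Il1b was the most abundant of the 6 transcripts per kilobase of exon in every group. Its level per kilobase averaged 15453 normalized counts with IRX3_S389A, 16117 with IRX3_S361A, 22274 with IRX3_WT and 8386 with GFP. In IRX3_WT libraries, Il1b held 0.216% of all counts, against 0.0919% in GFP libraries. Il1rn followed at 1583 to 2710 normalized counts per kilobase across the group means, then Il1a at 431 to 1283 and Il18 at 204 to 376. Il1f9 was scarcer, at 27.6 to 80.1 normalized counts per kilobase, and Il1f6 lay near the detection floor, with 4 to 14 reads per library. The order Il1b, Il1rn, Il1a, Il18, Il1f9, Il1f6 was the same in all 4 groups. The other family ligands in the table were nearly silent. Il33, an alarmin of barrier cells, had at most 10.1 normalized counts in any library, and Il1f10 at most 2.07. Il1f5, which encodes the IL-36 receptor antagonist, and Il1f8 had 0 reads in all 12 libraries, which allows up to 3 reads in each (counting error only).

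**Figure D1:**
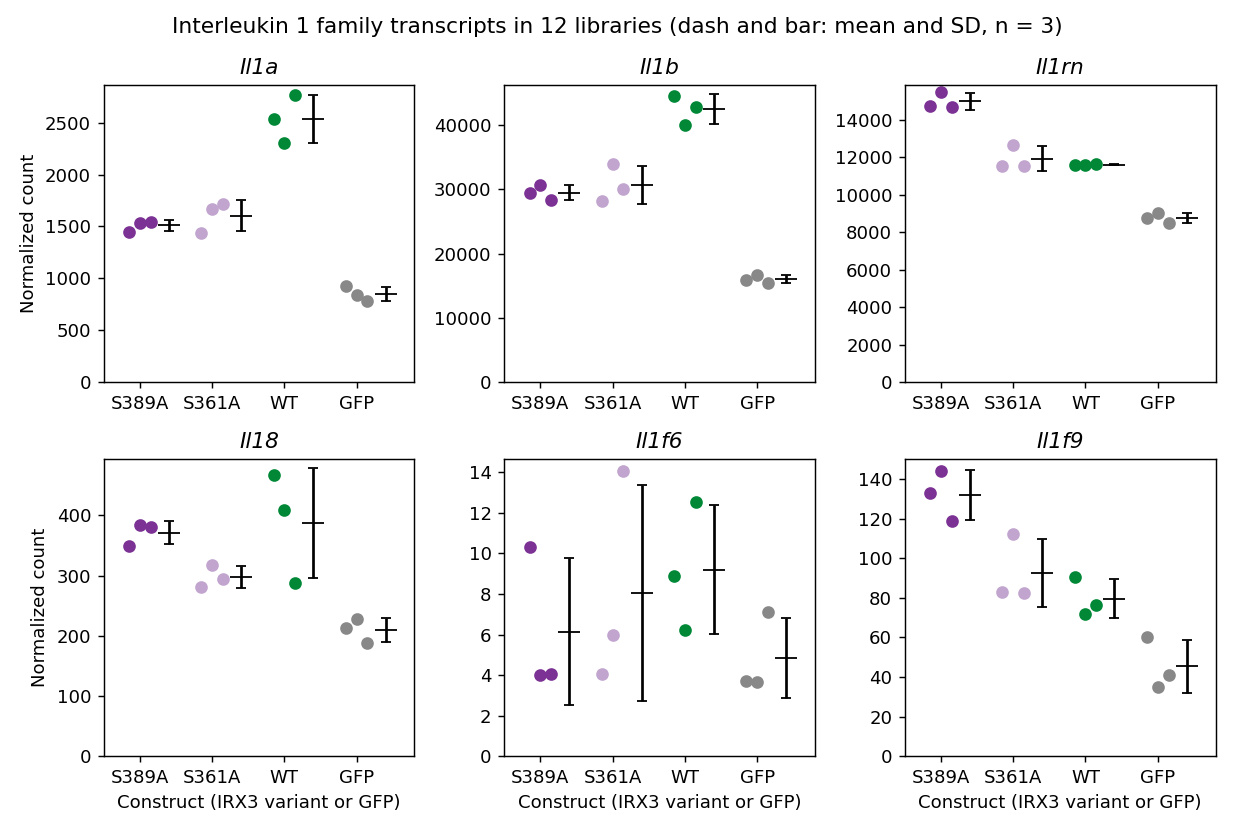
Normalized counts of Il1a, Il1b, Il1rn, Il18, Il1f6 and Il1f9 in each library (points) for the constructs IRX3_S389A, IRX3_S361A, IRX3_WT and GFP, with group mean and SD (dash and bar, n = 3). Il1a and Il1b peak with IRX3_WT, whereas Il1rn and Il1f9 peak with IRX3_S389A, and GFP has the lowest mean in all 6 panels.

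The differences were tested with limma on log2(normalized count + 1) over the 13369 genes that reached 10 normalized counts in 3 or more libraries, and a gene was called at a Benjamini-Hochberg adjusted p under 0.05. All 6 members passed this filter, Il1f6 only just, since exactly 3 libraries of 3 different groups reached 10. A difference among the 4 groups was called for 5 of the 6 members, against 44.2% of all genes tested, and the exception was Il1f6 (limma adjusted p = 0.594). GFP libraries had lower deposited totals (17325311 to 17469765) than the others (18743369 to 19796325). Rescaling all libraries to equal totals moved the median difference of all genes to -0.18 for IRX3_WT against GFP, -0.17 for IRX3_S389A against GFP and -0.11 for IRX3_S361A against GFP, from medians within 0.01 of 0. The share of calls that were higher was then 20.2% in place of 53% for IRX3_WT against GFP, 19.8% in place of 53.8% for IRX3_S389A against GFP and 24.6% in place of 57.7% for IRX3_S361A against GFP. It was 70.6% in place of 41.5% for IRX3_S361A against IRX3_WT and 36% in place of 68.9% for IRX3_S389A against IRX3_S361A. Every member called under the deposited scaling was also called in the same direction under equal totals. Comparisons that share the GFP or the IRX3_WT libraries are not independent of each other.

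With IRX3_WT both agonist transcripts, the antagonist, Il18 and Il1f9 were higher than with GFP. Of the 6 members 5 were called, against 39.6% of all genes tested. All 5 were higher, against 21% of all genes called higher and 18.6% called lower, and the median difference of the 6 members was 0.84, against -0.01 over all genes. Il1a, the agonist whose precursor is active, had 2532, 2300 and 2764 normalized counts in the IRX3_WT libraries, against 924, 843 and 785 in the GFP libraries. All 3 IRX3_WT libraries lay above all 3 GFP libraries, with a wide gap between the groups. On the log2 scale the Il1a difference was 1.57 (SE 0.07, limma adjusted p = 4.94e-14). An antisense gene, Gm14023, covers 11.3% of the exon bases of Il1a, and its own counts averaged 34.3 ± 12.7 with IRX3_WT and 8.80 ± 1.69 with GFP (SD, n = 3). The strand setting of the counting is not given, so reads of the pair cannot be told apart there.

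Il1b, the agonist precursor cleaved by caspase-1, had 44600, 40026 and 42801 normalized counts with IRX3_WT, against 15937, 16642 and 15399 with GFP. The groups did not overlap. The log2 difference was 1.41 (SE 0.07, limma adjusted p = 5.79e-08), and the antisense gene Il1bos covers 1.31% of the Il1b exon bases. Il1rn, the receptor antagonist, had 11623, 11580 and 11626 counts with IRX3_WT, against 8789, 9010 and 8494 with GFP. Its groups did not overlap either, but the step was smaller, with a log2 difference of 0.41 (SE 0.04, limma adjusted p = 7.01e-12). Under equal library totals the Il1rn difference was 0.23 and still called (limma adjusted p = 1.47e-06).

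Il18 had 467, 409 and 288 normalized counts in IRX3_WT replicates 1, 2 and 3, against 213, 228 and 189 in the GFP libraries. All IRX3_WT libraries lay above all GFP libraries, with replicate 3 far below the other IRX3_WT libraries. The Il18 log2 difference was 0.86 (SE 0.12, limma adjusted p = 2.77e-06). Il1f9, which encodes the epithelial and myeloid cytokine IL-36γ, had 90.6, 71.6 and 76.2 counts with IRX3_WT, against 60.3, 35.0 and 41.0 with GFP. The Il1f9 groups did not overlap, and the difference was 0.82 (SE 0.18, limma adjusted p = 0.000374). Il1f6, which encodes IL-36α, had 8.86, 6.23 and 12.5 counts with IRX3_WT, against 3.71, 3.68 and 7.12 with GFP. These ranges overlapped, and a difference was not detectable at this depth (0.81, SE 0.55, limma adjusted p = 0.26).

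**Figure D2:**
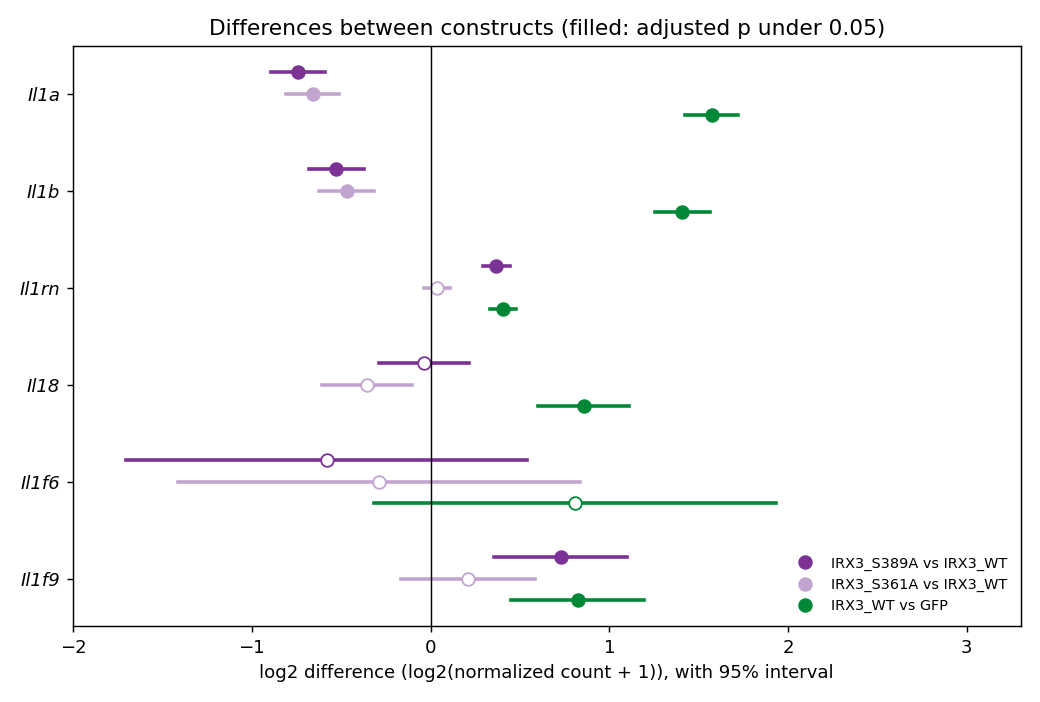
Differences between constructs on the log2(normalized count + 1) scale for the 6 members, with 95% intervals from limma; filled points have an adjusted p under 0.05. Il1a and Il1b lie at -0.74 and -0.53 for IRX3_S389A against IRX3_WT, while Il1rn and Il1f9 lie at 0.37 and 0.73.

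Relative to IRX3_WT, IRX3_S389A libraries had less Il1a and Il1b and more Il1rn and Il1f9. Of the 6 members 2 were called higher, against 8.21% of all genes, and 2 lower, against 7.08% of all genes, and the median difference was -0.28, against 0.00 over all genes. Il1a had 1451, 1536 and 1545 normalized counts with IRX3_S389A, against 2532, 2300 and 2764 with IRX3_WT. The IRX3_S389A libraries lay close together and below every IRX3_WT library. On the log2 scale Il1a fell by 0.74 (SE 0.07, limma adjusted p = 1.69e-07). Il1b had 29497, 30620 and 28286 counts with IRX3_S389A, against 44600, 40026 and 42801 with IRX3_WT. Its groups did not overlap, and Il1b fell by 0.53 (SE 0.07, limma adjusted p = 0.000579).

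Il1rn moved the other way in the same libraries, with 14759, 15521 and 14719 normalized counts with IRX3_S389A, against 11623, 11580 and 11626 with IRX3_WT. Every IRX3_S389A library exceeded every IRX3_WT library. The log2 difference was 0.37 (SE 0.04, limma adjusted p = 1.52e-09). Il1f9 had 133, 144 and 119 counts with IRX3_S389A, against 90.6, 71.6 and 76.2 with IRX3_WT. The groups did not overlap, and the difference was 0.73 (SE 0.18, limma adjusted p = 0.0048). Il18 had 349, 384 and 380 counts with IRX3_S389A, inside the IRX3_WT range of 288 to 467. Its difference was -0.04 with a 95% interval of -0.29 to 0.22 (limma adjusted p = 0.892). Il1f6 had 10.3, 4.03 and 4.07 counts with IRX3_S389A, a range that overlapped the IRX3_WT libraries (-0.58, SE 0.55, limma adjusted p = 0.555). The Irx3 transcript itself overlapped between these groups, at 187 ± 20.2 normalized counts with IRX3_S389A and 177 ± 16.3 with IRX3_WT (SD, n = 3).

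IRX3_S361A had less of the agonist transcripts than IRX3_WT, and no call was made on the antagonist. Of the 6 members 2 were called lower, against 9.07% of all genes, and 0 higher, against 6.43% of all genes, with a median difference of -0.32, against 0.01 over all genes. Il1a had 1435, 1666 and 1713 normalized counts with IRX3_S361A, below all 3 IRX3_WT libraries (2300 to 2764). On the log2 scale Il1a fell by 0.66 (SE 0.07, limma adjusted p = 6.64e-07). Il1b had 28221, 33981 and 30002 counts with IRX3_S361A, again below all 3 IRX3_WT libraries (40026 to 44600), and fell by 0.47 (SE 0.07, limma adjusted p = 0.00112). Il1rn had 11546, 12689 and 11537 counts with IRX3_S361A, a range that spans the IRX3_WT libraries (11580 to 11626). The Il1rn difference was 0.04 with a 95% interval of -0.04 to 0.11 (limma adjusted p = 0.57), and under equal library totals it was 0.10 and called higher (limma adjusted p = 0.0417).

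Il18 had 281, 317 and 295 normalized counts with IRX3_S361A, against 467, 409 and 288 with IRX3_WT. Replicate 3 of IRX3_WT fell among the IRX3_S361A libraries, and the other IRX3_WT libraries lay above all of them. The difference of -0.35 (SE 0.12) just missed the threshold (limma adjusted p = 0.0515). Without IRX3_WT replicate 3, Il18 fell by 0.55 (limma adjusted p = 0.000213), and the count tests on all 12 libraries called it too, with an adjusted p of 0.028 by edgeR and 0.0194 by DESeq2. Il1f9 had 83.0, 112 and 82.4 counts with IRX3_S361A, overlapping the IRX3_WT range of 71.6 to 90.6. Its difference was 0.21 (SE 0.18, limma adjusted p = 0.517), and that of Il1f6, with 4.05, 5.96 and 14.1 counts with IRX3_S361A, was -0.29 (SE 0.55, limma adjusted p = 0.799). IRX3_S361A libraries also held more Irx3 transcript, at 349 ± 21.5 normalized counts, than IRX3_WT libraries, at 177 ± 16.3 (SD, n = 3), and the serine change and the construct's level cannot be told apart in this comparison.

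Between the serine mutants, the antagonist transcript was higher with IRX3_S389A. Il1rn had 14759, 15521 and 14719 normalized counts with IRX3_S389A, against 11546, 12689 and 11537 with IRX3_S361A. The groups did not overlap, and the log2 difference was 0.33 (SE 0.04, limma adjusted p = 3.29e-08). Il1rn was the 1 member called, higher, against 7% of all genes called higher and 3.16% called lower, and the median difference of the 6 members was 0.13, against 0.00 over all genes. Il1a (-0.08, limma adjusted p = 0.56) and Il1b (-0.06, limma adjusted p = 0.704) overlapped between the mutants. Il18, with 349 to 384 counts with IRX3_S389A and 281 to 317 with IRX3_S361A, did not overlap, yet its difference of 0.32 did not pass (SE 0.12, limma adjusted p = 0.109). Il1f9 likewise ran from 119 to 144 counts with IRX3_S389A and from 82.4 to 112 with IRX3_S361A (0.52, SE 0.18, limma adjusted p = 0.0672). Fitted on these groups alone, limma called Il18 (adjusted p = 0.0193) and Il1f9 (adjusted p = 0.0292) as well. Il18 was also called without IRX3_WT replicate 1 (limma adjusted p = 0.0476) and without IRX3_WT replicate 3 (limma adjusted p = 0.0211). Il1f9 was also called without IRX3_S361A replicate 2 (limma adjusted p = 0.0344) and without GFP replicate 1 (limma adjusted p = 0.0468). Irx3 differed here as well, at 187 ± 20.2 normalized counts with IRX3_S389A and 349 ± 21.5 with IRX3_S361A.

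Against GFP, Il1a, Il1b, Il1rn, Il18 and Il1f9 were higher with each mutant. With IRX3_S389A 5 of 6 members were called higher, against 18.8% of all genes (16.2% were called lower), with a median difference of 0.83, against -0.01 over all genes. With IRX3_S361A 5 of 6 were called higher, against 14.9% of all genes (10.9% were called lower), with a median of 0.72, against 0.00 over all genes. For IRX3_S389A the log2 differences were 0.83 for Il1a (limma adjusted p = 3.43e-09), 0.88 for Il1b (3.15e-06), 0.78 for Il1rn (1.47e-19), 0.82 for Il18 (6e-06) and 1.55 for Il1f9 (7.23e-09). For IRX3_S361A they were 0.91 for Il1a (limma adjusted p = 1.44e-09), 0.94 for Il1b (3.13e-06), 0.44 for Il1rn (2.37e-12), 0.50 for Il18 (0.00277) and 1.03 for Il1f9 (2.76e-05). In these 5 transcripts every library of either mutant lay above every GFP library, and how often other genes separate in this way was not counted. An edgeR fit used the 9 libraries whose step, the unit of the normalized counts, lay clear of 1. It holds 1 library of IRX3_S361A, assumed to vary like the other groups, and gave 0.41 for Il18 with IRX3_S361A. Il1f6 was not called for IRX3_S389A (0.23, limma adjusted p = 0.797) or for IRX3_S361A (0.52, limma adjusted p = 0.554).

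The balance of antagonist to agonist, taken within each library, separated all 4 groups for Il1b but not for Il1a. The ratio of Il1rn to Il1b, each as normalized count + 1, was 0.50, 0.507 and 0.520 with IRX3_S389A and 0.409, 0.373 and 0.385 with IRX3_S361A. It was 0.261, 0.289 and 0.272 with IRX3_WT and 0.552, 0.541 and 0.552 with GFP. No library of one group fell within the range of another, with IRX3_WT lowest and GFP highest. An exact permutation test of the one-way F over the 4 groups (log2 ratios, 369600 arrangements) gave p = 6.49e-05, the smallest it can give, or 0.00026 after Benjamini-Hochberg adjustment over 4 ratios. The ratio of Il1rn to Il1a averaged 9.93 ± 0.352 with IRX3_S389A, 7.46 ± 0.667 with IRX3_S361A, 4.61 ± 0.414 with IRX3_WT and 10.3 ± 0.724 with GFP (SD, n = 3). Here the IRX3_S389A range (9.52 to 10.2) lay inside the GFP range (9.5 to 10.8), and the exact permutation p was 0.000325 (adjusted 0.000649).

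The other ratios set Il1b against Il1a and Il18 against Il1b. The ratio of Il1b to Il1a averaged 19.5 ± 1.07 with IRX3_S389A, 19.2 ± 1.5 with IRX3_S361A, 16.8 ± 1.17 with IRX3_WT and 18.9 ± 1.41 with GFP (SD, n = 3). A difference among the groups was not detected (exact permutation p = 0.139, adjusted 0.139). The ratio of Il18 to Il1b averaged 0.0126 ± 0.000802 with IRX3_S389A, 0.00974 ± 0.000337 with IRX3_S361A, 0.00916 ± 0.00209 with IRX3_WT and 0.0132 ± 0.000766 with GFP. Its exact permutation p was 0.00734 (adjusted 0.00978), with IRX3_WT replicate 3 the lowest library at 0.00675. A scaling factor that multiplies a whole library cancels in these ratios except for the added 1. They compare counts of transcripts of unequal length, so only their differences between groups carry meaning.

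**Figure D3:**
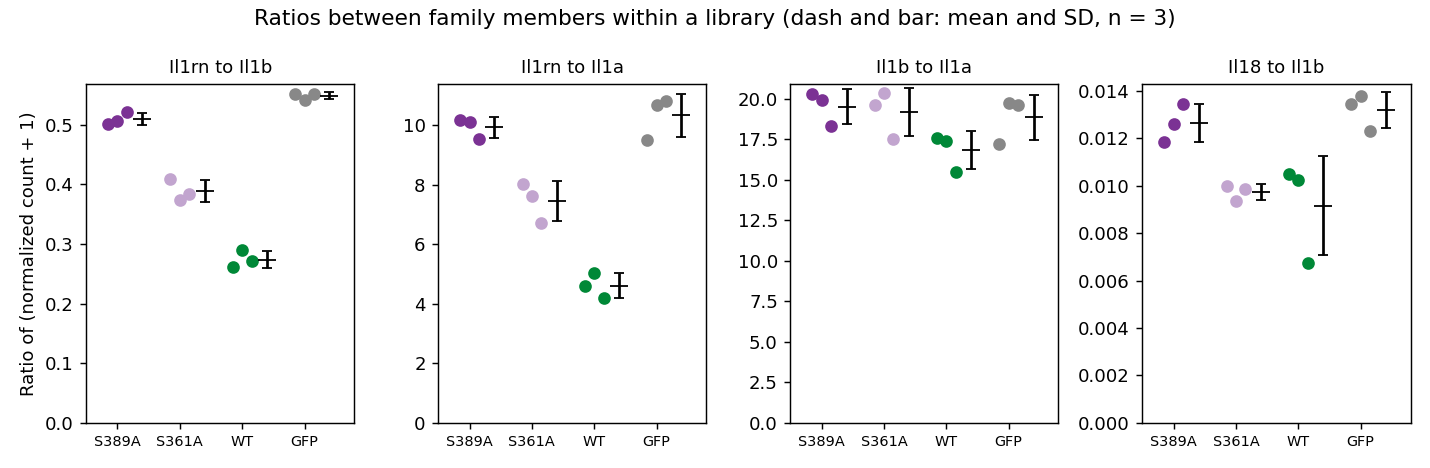
Ratios of normalized count + 1 between members within each library (points; dash and bar are mean and SD, n = 3) for IRX3_S389A, IRX3_S361A, IRX3_WT and GFP. The Il1rn to Il1b ratio lies between 0.261 and 0.289 with IRX3_WT and between 0.541 and 0.552 with GFP, with both mutants between them.

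Receptors of the family were sparse in these macrophages. Of 11 receptor and decoy genes 5 passed the filter on low values, and Il1r1, the signalling receptor of IL-1, averaged 3.04 ± 2.65 normalized counts with IRX3_S389A, 5.02 ± 0.972 with IRX3_S361A, 4.27 ± 3.15 with IRX3_WT and 5.46 ± 2.36 with GFP (SD, n = 3). Against GFP, 3 of the 5 were called higher with IRX3_S389A, 1 with IRX3_S361A and 2 with IRX3_WT, and 0 were called lower. The shares of all genes called higher were 18.8% with IRX3_S389A, 14.9% with IRX3_S361A and 21% with IRX3_WT, so 1 of 5 with IRX3_S361A is near the background. Between mutants and IRX3_WT, and between the mutants, limma called 0 of the 5. Of all genes, 15.3% were called for IRX3_S389A against IRX3_WT and 15.5% for IRX3_S361A against IRX3_WT. Between the mutants it was 10.2%, so 0 of 5 is near the background in each. Il1rap, the shared co-receptor, averaged 501 ± 10.3 counts with IRX3_S389A, 500 ± 16.9 with IRX3_S361A, 516 ± 60.02 with IRX3_WT and 418 ± 44.5 with GFP. Il1rl2, the IL-36 receptor, averaged 49.6 ± 9.52 with IRX3_S389A, 35.7 ± 15.6 with IRX3_S361A, 38.2 ± 0.674 with IRX3_WT and 23.5 ± 5.73 with GFP. Il18bp, the secreted decoy of IL-18, averaged 296 ± 28.1 with IRX3_S389A and 241 ± 43.2 with GFP (0.31, SE 0.11, limma adjusted p = 0.0319). Il18rap, a chain of the IL-18 receptor, averaged 39.3 ± 8.29 with IRX3_S389A, 38.5 ± 8.95 with IRX3_S361A, 25.02 ± 7.61 with IRX3_WT and 31.2 ± 10.2 with GFP, and no difference of it passed. Under equal library totals 1 receptor call, that of Il1rl2, remained against GFP with IRX3_S389A, and 0 with IRX3_S361A or IRX3_WT. Of 13319 genes, 1334 were then called higher with IRX3_S389A, 1053 with IRX3_S361A and 1396 with IRX3_WT.

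The sensors and enzymes that mature IL-1β and IL-18 were all measurable, with 15 of 15 genes tested. Against IRX3_WT, 5 were called higher and 3 lower with IRX3_S389A (8.21% and 7.08% of all genes, median 0.06, against 0.00 over all genes). With IRX3_S361A 0 higher and 5 lower were called (6.43% and 9.07% of all genes, median -0.15, against 0.01). Under equal library totals it was 1 higher and 3 lower (1806 and 752 of 13319 genes). Against GFP, IRX3_WT had 8 higher and 3 lower (21% and 18.6% of all genes, median 0.19, against -0.01). Under equal library totals it was 6 higher and 5 lower (1396 and 5523 of 13319 genes). Against GFP, IRX3_S389A had 10 higher and 3 lower (18.8% and 16.2% of all genes). Under equal totals it was 9 higher and 3 lower (1334 and 5401 of 13319 genes). IRX3_S361A had 7 higher and 3 lower (14.9% and 10.9% of all genes). Under equal totals it was 6 higher and 5 lower (1053 and 3233 of 13319 genes). Nlrp3, the inflammasome sensor, averaged 24406 ± 421 normalized counts with IRX3_S389A, 23055 ± 848 with IRX3_S361A, 29943 ± 1010 with IRX3_WT and 17439 ± 228 with GFP (SD, n = 3). It fell by 0.29 with IRX3_S389A (SE 0.03, limma adjusted p = 1.14e-08) and by 0.38 with IRX3_S361A (SE 0.03, limma adjusted p = 1.88e-11) relative to IRX3_WT. Mefv, which encodes the sensor pyrin, averaged 3658 ± 106 with IRX3_S389A, 3298 ± 73.8 with IRX3_S361A, 4158 ± 44.1 with IRX3_WT and 2442 ± 44.1 with GFP, and was likewise called lower with both mutants than with IRX3_WT.

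The caspase genes Casp1 and Casp4, chosen by the smallest p, had another order of group means than Nlrp3. Casp1, whose product cleaves both precursors, averaged 4206 ± 159 normalized counts with IRX3_S389A, 3630 ± 23.1 with IRX3_S361A, 3910 ± 157 with IRX3_WT and 2956 ± 93.7 with GFP (SD, n = 3). It was not called against IRX3_WT with IRX3_S389A (0.11, limma adjusted p = 0.0813) or with IRX3_S361A (-0.11, limma adjusted p = 0.0785), but was higher with IRX3_S389A than with IRX3_S361A (0.21, SE 0.04, limma adjusted p = 0.000397). Casp4, which encodes the sensor of cytosolic LPS, averaged 3749 ± 41.3 with IRX3_S389A, 3383 ± 65.0 with IRX3_S361A, 3669 ± 249.3 with IRX3_WT and 2439 ± 61.2 with GFP. Casp4 was not called between IRX3_S389A and IRX3_WT, and under equal library totals that difference was 0.04 (limma adjusted p = 0.603). Casp8, a further caspase gene of the list, was named after its values were seen. It averaged 1956 ± 58.6 with IRX3_S389A, 1735 ± 33.7 with IRX3_S361A, 1664 ± 59.2 with IRX3_WT and 1580 ± 30.1 with GFP, and was higher with IRX3_S389A than with IRX3_WT (log2 difference 0.23, SE 0.05, limma adjusted p = 0.000376). Between the mutants 8 of the 15 maturation genes were called higher with IRX3_S389A and 0 lower (7% and 3.16% of all genes). Under equal library totals it was 4 higher and 0 lower (596 and 1060 of 13319 genes).

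**Figure D4:**
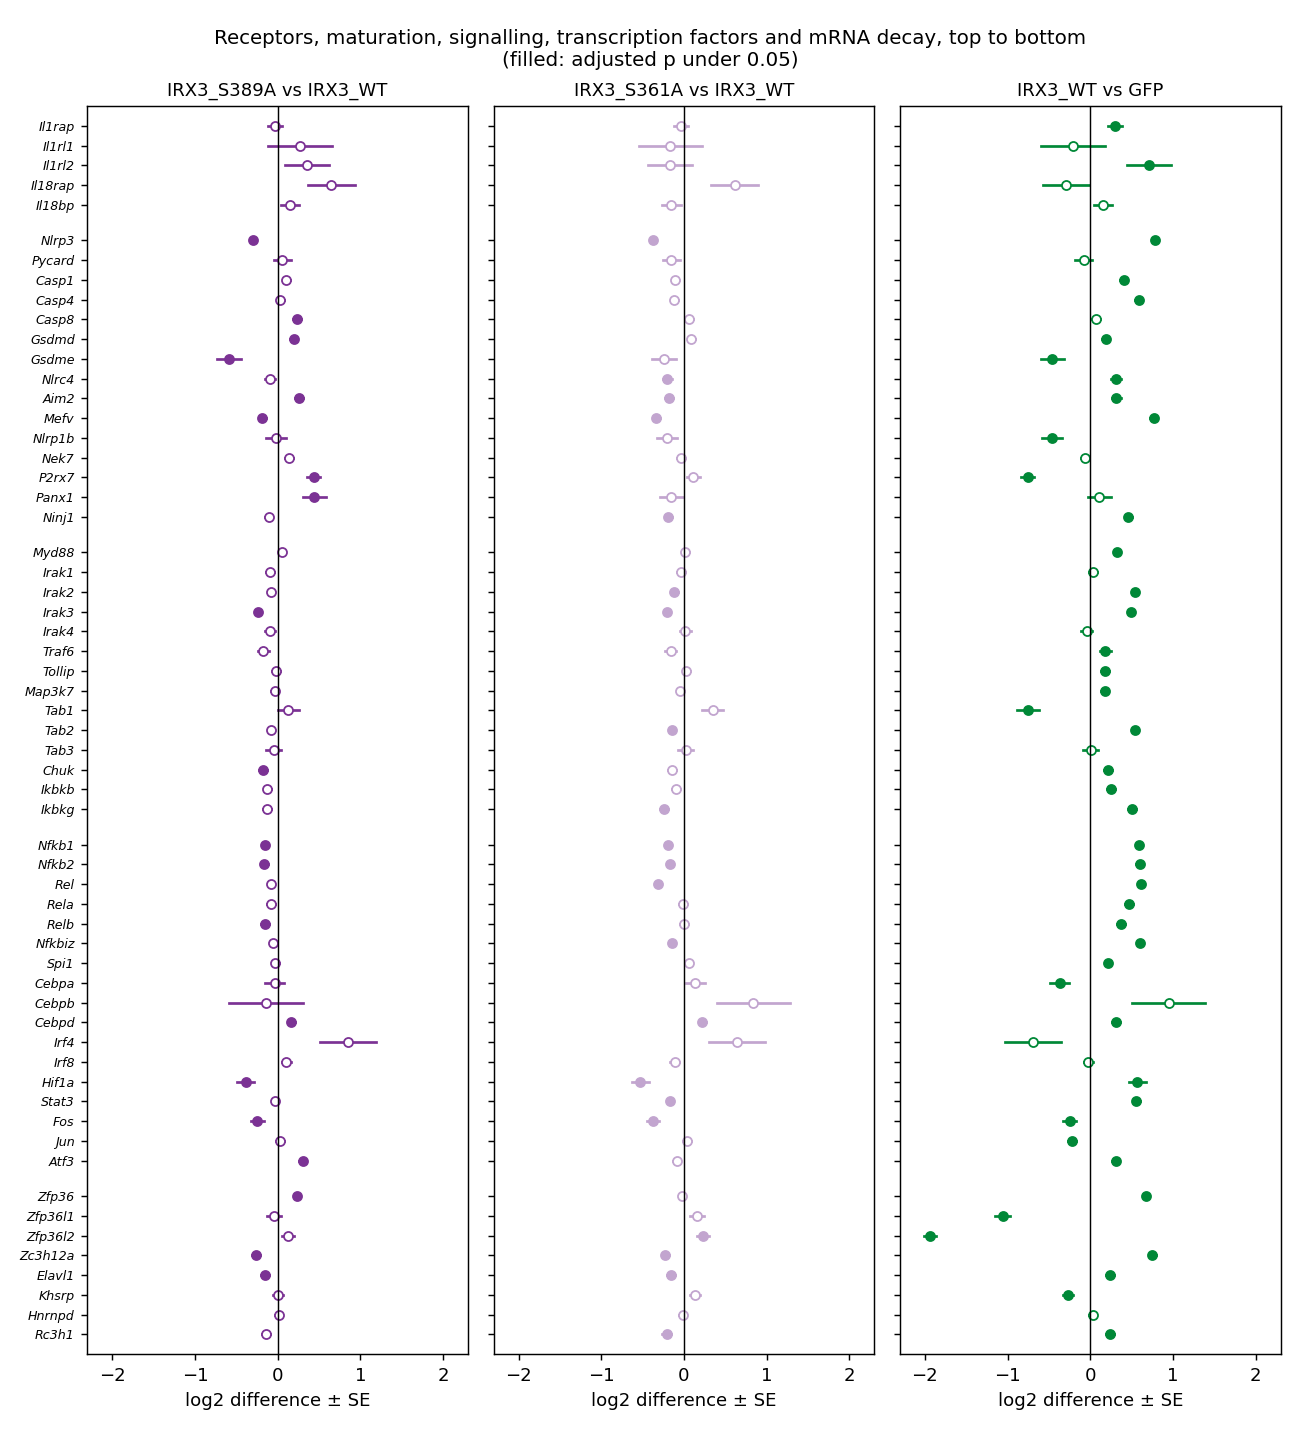
Log2 differences with SE from limma for the tested genes of 5 lists (receptors and decoys, maturation and release, receptor signalling, transcription factors, mRNA decay, top to bottom), for IRX3_S389A against IRX3_WT, IRX3_S361A against IRX3_WT and IRX3_WT against GFP; filled points have an adjusted p under 0.05. Nlrp3 lies below 0 in both mutant panels, at -0.29 and -0.38, and Zfp36l2 lies at -1.94 for IRX3_WT against GFP.

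All 14 genes of the signalling chain below the receptors were tested. Against IRX3_WT, 0 were called higher and 2 lower with IRX3_S389A (8.21% and 7.08% of all genes). With IRX3_S361A 0 were higher and 4 lower (6.43% and 9.07% of all genes). Under equal library totals it was 1 higher and 2 lower (1806 and 752 of 13319 genes). Against GFP, IRX3_WT had 10 higher and 1 lower (21% and 18.6% of all genes, median 0.20, against -0.01 over all genes). Under equal library totals it was 5 higher and 3 lower (1396 and 5523 of 13319 genes). Irak3, a negative regulator of IL-1 receptor and Toll-like receptor signalling, averaged 7104 ± 62.0 normalized counts with IRX3_S389A, 7258 ± 237 with IRX3_S361A, 8367 ± 309 with IRX3_WT and 5930 ± 193 with GFP (SD, n = 3). It was called lower with both mutants than with IRX3_WT (-0.24 with IRX3_S389A, limma adjusted p = 1.21e-05, and -0.20 with IRX3_S361A, limma adjusted p = 9.1e-05). The kinase gene Irak2 averaged 6168 ± 123 with IRX3_S389A, 6039 ± 238 with IRX3_S361A, 6536 ± 135 with IRX3_WT and 4490 ± 92.1 with GFP. Tab2, which encodes an adaptor of the kinase TAK1, was higher with IRX3_WT than with GFP by 0.54, and the adaptor gene Myd88 by 0.32 (limma adjusted p = 7.04e-15 and 7.59e-09). Under equal library totals the Myd88 difference was 0.14 (limma adjusted p = 0.00163).

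Transcription factor genes with known roles at the Il1a, Il1b or Il1rn promoters numbered 17, all tested. Against IRX3_WT, 2 were called higher and 5 lower with IRX3_S389A (8.21% and 7.08% of all genes), and 1 higher and 7 lower with IRX3_S361A (6.43% and 9.07% of all genes). Against GFP, IRX3_WT had 11 higher and 3 lower (21% and 18.6% of all genes, median 0.37, against -0.01 over all genes). Under equal library totals it was 10 higher and 5 lower (1396 and 5523 of 13319 genes). Nfkb1, which encodes the p50 subunit of NF-kappaB and its precursor, averaged 18779 ± 194 normalized counts with IRX3_S389A, 18239 ± 330 with IRX3_S361A, 20860 ± 564 with IRX3_WT and 13852 ± 273 with GFP (SD, n = 3). It fell by 0.15 with IRX3_S389A (SE 0.03, limma adjusted p = 0.000547) and by 0.19 with IRX3_S361A (SE 0.03, limma adjusted p = 1.49e-05) relative to IRX3_WT. Rel, which encodes the c-Rel subunit, averaged 7676 ± 284 with IRX3_S389A, 6533 ± 126 with IRX3_S361A, 8119 ± 420 with IRX3_WT and 5305 ± 187 with GFP. Rel was higher with IRX3_S389A than with IRX3_S361A (0.23, SE 0.04, limma adjusted p = 5.59e-05). Nfkb2 and Nfkbiz, a further subunit gene and the gene of the nuclear cofactor IkB-zeta, were higher with IRX3_WT than with GFP by 0.60 and 0.61 (limma adjusted p = 3.38e-16 and 5.23e-18).

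Among 8 regulators of cytokine mRNA stability, the members of the Zfp36 family, which promote decay of transcripts with AU-rich elements, moved in different directions. Zfp36l2 averaged 462 ± 4.00 normalized counts with IRX3_S389A, 500 ± 28.8 with IRX3_S361A, 426 ± 46.8 with IRX3_WT and 1634 ± 53.0 with GFP (SD, n = 3). On the log2 scale it fell by 1.94 with IRX3_WT relative to GFP (SE 0.07, limma adjusted p = 7.04e-23), and every IRX3 library lay below every GFP library. Zfp36 averaged 8190 ± 224 with IRX3_S389A, 6859 ± 395 with IRX3_S361A, 6960 ± 228 with IRX3_WT and 4361 ± 36.7 with GFP. Like Il1rn, Zfp36 was higher with IRX3_S389A than with IRX3_WT (0.23, SE 0.04, limma adjusted p = 3.21e-05) and than with IRX3_S361A (0.26, SE 0.04, limma adjusted p = 1.11e-05). Zc3h12a, which encodes the RNase regnase-1, averaged 4176 ± 135 with IRX3_S389A, 4277 ± 93.3 with IRX3_S361A, 5008 ± 294 with IRX3_WT and 2980 ± 149 with GFP. Zfp36l1 fell by 1.06 with IRX3_WT relative to GFP (limma adjusted p = 3.77e-13), but another gene on the other strand covers 55.9% of its exon bases, so its reads are uncertain. Of the 8 genes, 4 were called higher and 3 lower with IRX3_WT against GFP (21% and 18.6% of all genes). Under equal library totals it was 2 higher and 4 lower (1396 and 5523 of 13319 genes). With IRX3_S389A against IRX3_WT, 1 was higher and 2 lower (8.21% and 7.08% of all genes), and with IRX3_S361A against IRX3_WT, 1 was higher and 3 lower (6.43% and 9.07% of all genes).

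Genes with patterns nearest to each member over the 12 libraries were ranked by the root mean square difference between centred log2 profiles. The 9710 genes ranked left out the members themselves, weakly expressed genes and genes named Gm or Rik. Members were therefore not ranked as neighbours of each other. This measure is a description, and all profiles share the same libraries. Nearest to Il1a were Inhba, the activin A subunit gene (0.11), Ntng2 (0.13) and the prostaglandin E synthase gene Ptges (0.13). Inhba averaged 411 ± 20.2 normalized counts with IRX3_S389A, 390 ± 62.7 with IRX3_S361A, 657 ± 66.0 with IRX3_WT and 207 ± 7.85 with GFP (SD, n = 3). Nearest to Il1b were the Wnt receptor gene Fzd1 (0.09), Tma16 (0.09) and the acute-phase gene Saa3 (0.11). Il1rn lay nearest to the sulfotransferase gene Tpst1 (0.06), Slfn5 (0.06) and the interferon-stimulated exonuclease gene Isg20 (0.06). Slfn5 averaged 30189 ± 645 with IRX3_S389A, 24242 ± 665 with IRX3_S361A, 25038 ± 1691 with IRX3_WT and 18288 ± 367 with GFP. Il18 lay nearest to the guanylate-binding protein gene Gbp3 (0.12), Tmem67 (0.13) and the endothelin gene Edn1 (0.13). Il1f9, with fewer reads, had looser neighbours in Arhgef37 (0.27), the glypican gene Gpc1 (0.27) and AC163635.1 (0.28). Il1f6 had none near it, since Trim6, Gdf15 and Has1 lay at 0.43 to 0.45 against a spread of 0.59 in Il1f6 itself.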

How the data were processed

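The table held, for 55401 genes and 12 libraries, a deposited signal in which the authors had divided each gene count by 1 size factor per library. All values in a column were whole multiples of 1 step (tolerance 1e-06). This held alike in all 12 libraries. In 3 libraries the step lay within 1% of 1 (1.00652, 0.993922 and 1.0052), close to that of unscaled counts. An added fit left these out and used the 9 libraries with a step clear of 1. The range of recovered reads and the count tests on 12 libraries use the recovered reads of all libraries. Per the submitters' processing notes, the tools were Trimmomatic, HISAT2 2.1.0 and StringTie 1.3.5, on mm10. What counted the reads, with which strand setting and annotation release, was not given in the sources used here. IDs were matched to GENCODE M21, 99.5% without version.

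Differences were tested with limma 3.58.1 (R 4.3.3, trend and robust) on log2(value + 1), which understates changes of weakly expressed genes. All 12 libraries entered 1 fit with 4 group means and 8 residual degrees of freedom, over the 13369 genes with at least 10 in at least 3 libraries, adjusted by Benjamini-Hochberg at 0.05. The unit is normalized, so this test took the place of edgeR's. Alternatives were equal library totals, edgeR 4.0.16 and DESeq2 1.42.0 on recovered reads, pseudocounts of 0.5 and 5, no filter, a replicate block, only the groups compared and leaving out each library. The edgeR fit on 9 libraries was added after seeing the data. The fits were tested on simulated data. The first criterion, which counted weakly expressed genes, was not met, and recovery was then judged on genes with a mean of at least 100 reads. No pair of libraries was a duplicate (chi-square per degree of freedom 2.67 to 4.96 within groups).

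All members are named in every comparison, together with up to 4 genes per list with the smallest p across the 4 groups and the 3 genes nearest to each member. Il1r1, Il33, Il1f5, Il1f8 and Il1f10, which did not pass the filter, Casp8, and the genes under other observations were named after their values were seen. The members and lists were chosen with earlier results of these data known. The result of 1 marker list is not reported here.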

Additional observations from a re-analysis of the deposited data

How the results depend on the processing

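Of 722 recomputed member values, 698 kept their direction and side of the threshold, 14 passed it where they had not, 1 no longer passed it and 9 changed sign, none of them called before or after. Leaving out 1 library gave log2 differences of -0.24 to 0.11 for Il18 with IRX3_S389A against IRX3_WT, above 0 without IRX3_S389A replicate 1 (0.0077), IRX3_WT replicate 1 or IRX3_WT replicate 2 (0.017). It gave -0.12 to 0.0175 for Il1b with IRX3_S389A against IRX3_S361A and -0.0085 to 0.060 for Il1rn with IRX3_S361A against IRX3_WT, both changing sign without IRX3_S361A replicate 2. For Il1f6 with IRX3_S361A against IRX3_WT it gave -0.51 to 0.0527, above 0 without IRX3_S361A replicate 1. Il18 for IRX3_S361A against IRX3_WT, besides the alternatives given with it, was called with a pseudocount of 5 (limma adjusted p = 0.0495), with no filter (limma adjusted p = 0.0405) and without GFP replicate 3 (limma adjusted p = 0.0496). The 9 libraries with a step clear of 1 hold 2 of IRX3_S389A, 1 of IRX3_S361A, 3 of IRX3_WT and 3 of GFP. In that fit IRX3_S361A rests on 1 library assumed to vary like the other groups. There Il1a (0.0576) and Il1b (0.0295) for IRX3_S389A against IRX3_S361A and Il1rn for IRX3_S361A against IRX3_WT (-0.0092) changed sign, and edgeR called 1234 genes for IRX3_S361A against IRX3_WT in place of 2071 with limma on all 12, 1359 in place of 2043 for IRX3_S389A against IRX3_WT, 2128 in place of 3457 for IRX3_S361A against GFP and 358 in place of 1359 for IRX3_S389A against IRX3_S361A. With only the groups compared, 3 members were called for IRX3_S389A against IRX3_S361A in place of 1, and 1 to 2 when 1 library was left out. Leaving out 1 library gave 1451 to 2174 genes for IRX3_S389A against IRX3_WT, 1483 to 2172 for IRX3_S361A against IRX3_WT, 4558 to 5366 for IRX3_WT against GFP, 3994 to 4764 for IRX3_S389A against GFP, 2871 to 3536 for IRX3_S361A against GFP and 908 to 1417 for IRX3_S389A against IRX3_S361A. Same-numbered libraries did not deviate together (18 pairs, correlations -0.04 to 0.03, 3 of 12 libraries nearest to their own number), so no pairing by number was detected. A replicate block called 1982 genes for IRX3_S389A against IRX3_WT and changed 1 of 52 results, Il18 for IRX3_S361A against IRX3_WT (limma adjusted p = 0.0247). Il1f6, at 4 to 14 reads per library, left the test under equal library totals and some other settings, and counting error limits it. The cause of the changed calls was not tested.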

Other observations

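P2rx7, Panx1 and Aim2, genes around the release of IL-1β, and the transcription factor gene Hif1a were chosen after their values were seen. P2rx7, the ATP-gated channel upstream of NLRP3, averaged 453 ± 8.52 normalized counts with IRX3_S389A, 362 ± 27.8 with IRX3_S361A, 334 ± 9.42 with IRX3_WT and 564 ± 29.0 with GFP (SD, n = 3). On the log2 scale it fell by 0.75 with IRX3_WT relative to GFP (SE 0.08, limma adjusted p = 3.01e-10), the opposite sign to Nlrp3. Panx1, a membrane channel gene, averaged 231 ± 20.3 with IRX3_S389A, 154 ± 31.3 with IRX3_S361A, 171 ± 26.9 with IRX3_WT and 157 ± 18.3 with GFP, and was called higher with IRX3_S389A than with IRX3_WT (0.44, SE 0.14, limma adjusted p = 0.0237). Aim2, the sensor of cytosolic DNA, averaged 2599 ± 100 with IRX3_S389A, 1917 ± 77.5 with IRX3_S361A, 2175 ± 195 with IRX3_WT and 1745 ± 31.6 with GFP. Hif1a, a transcription factor gene linked to Il1b induction, averaged 4889 ± 124 with IRX3_S389A, 4456 ± 586 with IRX3_S361A, 6405 ± 630 with IRX3_WT and 4317 ± 220 with GFP. It was higher with IRX3_WT than with GFP (0.57, SE 0.10, limma adjusted p = 0.00203).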
